A study of Mus musculus with 2 samples.

Results

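Inhbb, Rasgrp2, Napsa, Smagp, Msc, Fblim1, Gng3, Bvht, Halr1 and Gm11627 are genes with more transcript in mouse embryonic stem cells (mESC) of a reporter-negative library than in cells of the reporter-positive library beside it. They were picked by symbol, with that difference between the libraries already known, and all 10 were found among the 55415 features of the count tables. Their levels in the 2 libraries are therefore a description and are not a finding.

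The cells carried GFP driven by the MERVL promoter, which belongs to an endogenous retrovirus active in a state resembling the 2-cell embryo (the 2C-like state), and a nuclear H2B-mIFP label for following cells. The study asked what becomes of cells in that state. There is 1 single-cell library per group, MERVL GFP positive and MERVL GFP negative in the labels. Both are labelled mESC, from a line made for the study, and no treatment, time point or knockout is given. Neither the way cells were sorted into the groups nor the strain is given. In the labels each library is its own batch. Library, batch and group therefore cannot be told apart, and with 1 library on each side the groups could not be tested against each other. All intervals are at 95% and speak for counting error alone.

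The matrices hold 4603 positive-library and 3832 negative-library cells, with 138364094 and 156406894 unique molecular identifiers (UMIs, taken as counted molecules). The median cell had 29554.5 and 39099.5 UMIs, and the median mitochondrial share was 2.56% and 1.60%. GFP stood at 205 counts per 1000000 UMIs of the library (CPM) against 0.454 CPM, and the 6 near-identical Zscan4 genes Zscan4a to Zscan4f, which mark the 2C-like state, at 322 against 0.627 CPM. The summed level of 8 primitive endoderm genes was 199 against 95.7 CPM. That of 10 fibroblast or feeder genes was 14.1 against 3.89 CPM, of which Thy1 took 9.29 and 2.15 CPM. In the negative library 2 of these fibroblast or feeder genes were at 0 UMIs. The level of 8 trophoblast genes was 41.5 against 51.4 CPM, of which Tfap2c took 18.4 and 39.5 CPM. The libraries shared 3 cell barcodes.

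The 10 genes belong to no single pathway. Activin B, built from the Inhbb product, is a secreted ligand of the TGF-beta family, and activin and Nodal signals act on pluripotent cells and in patterning the early embryo. Rasgrp2 and Gng3 encode parts of intracellular signalling switches, Fblim1 and Smagp adhesion proteins, Napsa a protease and Msc a transcription repressor, while Bvht and Halr1 are long non-coding RNAs known for steering cardiac and Hox programmes in stem cells. Pluripotent cultures are mixtures in which cells move between states, including the 2C-like state and a primitive endoderm-like state marked by Gata6 and Sox17.

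In mm10 coordinates of the GENCODE M21 annotation, the genes lie on different chromosomes, apart from the pairs Inhbb with Msc and Rasgrp2 with Gng3. Inhbb spans chr1:119415465-119422248, Rasgrp2 chr19:6399340-6415216, Napsa chr7:44572380-44586862, Smagp chr15:100621339-100636940 and Msc chr1:14753346-14755992. Fblim1 spans chr4:141576062-141606096, Gng3 chr19:8836933-8839194, Halr1 chr6:52102949-52113684 and Gm11627 chr11:102576398-102579461. Bvht and Halr1 are annotated as lincRNA and the other 8 as protein-coding. RefSeq promoters (build GRCm38.p6) were used for 7 of the 10 genes, with 10 start sites. Entries on the chromosome of Bvht were left out of the search for the 10 genes. The 250 bases before the start are shown for the 4 start sites whose window holds no annotated exon, 2 of them of Smagp, because they differ in the letters a bHLH protein such as Msc can bind. Capitals mark CANNTG, the E-box, which reads the same on both strands.

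Inhbb (chr1:119422249-119422498, minus strand): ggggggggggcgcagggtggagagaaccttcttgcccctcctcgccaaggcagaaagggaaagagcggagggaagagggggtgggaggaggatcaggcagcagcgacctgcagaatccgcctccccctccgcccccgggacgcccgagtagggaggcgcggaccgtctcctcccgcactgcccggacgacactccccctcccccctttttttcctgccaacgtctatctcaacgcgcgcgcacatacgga
Smagp, outer start (chr15:100636941-100637190, minus strand): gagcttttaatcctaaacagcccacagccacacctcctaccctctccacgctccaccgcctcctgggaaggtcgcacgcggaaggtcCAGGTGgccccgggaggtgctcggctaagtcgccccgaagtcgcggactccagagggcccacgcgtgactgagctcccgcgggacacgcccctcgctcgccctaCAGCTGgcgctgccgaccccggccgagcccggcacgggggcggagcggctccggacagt
Smagp, inner start (chr15:100635560-100635809, minus strand): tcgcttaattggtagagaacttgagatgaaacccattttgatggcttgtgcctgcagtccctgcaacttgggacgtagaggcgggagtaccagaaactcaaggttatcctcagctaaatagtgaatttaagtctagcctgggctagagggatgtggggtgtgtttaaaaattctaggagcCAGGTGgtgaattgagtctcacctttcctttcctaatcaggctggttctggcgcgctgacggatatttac
Halr1 (chr6:52102699-52102948, plus strand): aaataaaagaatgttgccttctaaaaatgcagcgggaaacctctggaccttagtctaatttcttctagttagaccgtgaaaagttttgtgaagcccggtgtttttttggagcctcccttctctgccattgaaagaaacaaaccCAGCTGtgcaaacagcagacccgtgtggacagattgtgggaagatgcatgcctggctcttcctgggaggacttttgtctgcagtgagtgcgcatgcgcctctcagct

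The windows of Inhbb and of the outer Smagp start are rich in CG pairs, with 21 and 27, while those of the inner Smagp start and of Halr1 hold 6 each. The Inhbb window has no E-box, the outer Smagp window has 2, and the inner Smagp window and that of Halr1 have 1 each. Over 300 bases around the start, CANNTG was present at 6 of the 10 start sites and in 72.3% of all 32851 RefSeq promoters of that length. CTTTG, the core of the motif of Lef1 and its relatives, was searched on both strands and was present at 4 of the 10 start sites and in 53.9% of all promoters. The start sites held 2 to 40 CG pairs, with a median of 10.5, against a median of 7 over all promoters. A match is only a match of letters.

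Inhbb, the activin B subunit, had 606 UMIs or 4.38 CPM (Poisson interval 4.04 to 4.74) in the positive library and 2833 UMIs or 18.1 CPM (17.5 to 18.8) in the negative library. The negative library was higher by 4.13-fold (3.79 to 4.52).

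Among the signalling genes, Rasgrp2, which loads the small GTPase Rap1 in response to calcium and diacylglycerol, had 3699 UMIs or 26.7 CPM (25.9 to 27.6) in the positive library and 16266 UMIs or 104 CPM (102.4 to 105.6) in the negative library. Its ratio was 3.89 (3.75 to 4.03). Gng3, a G protein gamma subunit best known from neurons, had 1236 UMIs or 8.94 CPM (8.45 to 9.45) against 4063 UMIs or 26.0 CPM (25.2 to 26.8). Its ratio, 2.91 (2.73 to 3.10), was the smallest of the 10 on the scale of CPM + 1. The adhesion genes differed by like amounts. Fblim1 encodes migfilin, which links filamin to integrin adhesions, and had 4068 UMIs or 29.4 CPM (28.5 to 30.3) against 13864 UMIs or 88.6 CPM (87.2 to 90.1), a ratio of 3.01 (2.91 to 3.12). Smagp, a small membrane glycoprotein at cell contacts, had 1292 UMIs or 9.34 CPM (8.84 to 9.87) against 6196 UMIs or 39.6 CPM (38.6 to 40.6), a ratio of 4.24 (3.99 to 4.51).

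Napsa encodes napsin A, an aspartic protease of lung and kidney. With 225 UMIs or 1.63 CPM (1.42 to 1.85) in the positive library and 1504 UMIs or 9.62 CPM (9.14 to 10.1) in the negative library it had the largest ratio of the 10, 5.91 (5.13 to 6.83). Msc (musculin), a bHLH repressor known from muscle precursors and lymphocytes, had 1483 UMIs or 10.7 CPM (10.2 to 11.3) against 4827 UMIs or 30.9 CPM (29.997 to 31.7), a ratio of 2.88 (2.71 to 3.05).

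The non-coding RNA Bvht (Braveheart), which is needed for cardiac commitment of stem cells and spans chr18:61639542-61647472, had 1312 UMIs or 9.49 CPM (8.98 to 10.01) against 5572 UMIs or 35.6 CPM (34.7 to 36.6), a ratio of 3.76 (3.54 to 3.99). Halr1, also called Haunt, is a non-coding RNA known from work on Hox gene regulation. It had 2285 UMIs or 16.5 CPM (15.9 to 17.2) against 7882 UMIs or 50.4 CPM (49.3 to 51.5), a ratio of 3.05 (2.91 to 3.20). Gm11627, a protein-coding gene model, had 1102 UMIs or 7.97 CPM (7.504 to 8.45) against 3656 UMIs or 23.4 CPM (22.6 to 24.1), a ratio of 2.93 (2.74 to 3.14). For each of the 10 genes the intervals of the 2 libraries lay apart. They were picked for such a difference, and the share of all genes with separate intervals is not given here. With this many UMIs, intervals part at small ratios too, as for Zfp42 with a ratio of 1.37 (1.36 to 1.38).

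**Figure D1:**
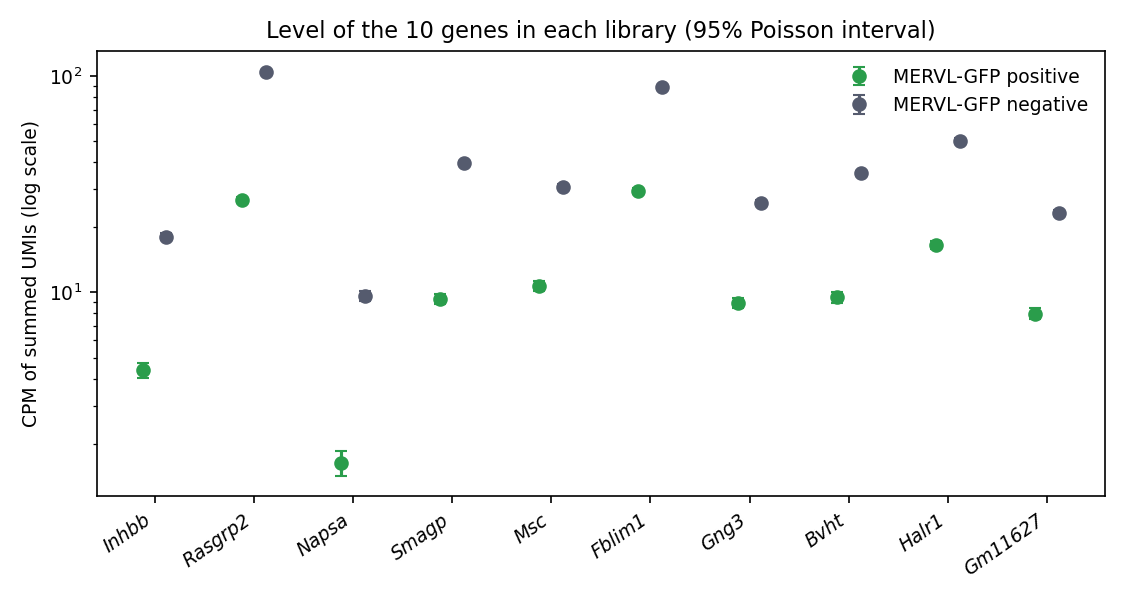
Level of each gene in CPM of summed UMIs (log scale) in the MERVL-GFP positive (green) and negative (grey) library, with 95% Poisson intervals that cover counting error only. Each grey point lies above the green point of its gene, from 2.88-fold for Msc to 5.91-fold for Napsa.

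The 10 genes together made up 125 CPM (123 to 127) of the positive library and 426 CPM (423 to 429) of the negative library, a ratio of 3.41 (3.35 to 3.46). As background, a filter kept 8042 genes that reached 10 CPM in 1 of the libraries and had 50 or more UMIs. Of these, 80 (0.995%) were 2-fold or more higher in the negative library on the scale of CPM + 1, and 7.01% were 2-fold or more lower. Of the 10 genes, 9 passed that filter and all 10 were 2-fold higher, since they were picked for it. Napsa, at 9.62 CPM, missed the filter. At a minimum of 1 CPM the share was 0.781% of 14590 genes. Among the 8042 genes ordered by ratio, Smagp, Rasgrp2, Inhbb and Bvht held places 3 to 6, Fblim1 and Halr1 places 10 and 11, and Gm11627, Msc and Gng3 places 25 to 27. Mt3 and Lef1 came before them. The median log2 ratio of the 10 was 1.68, and that of the 8042 genes was -0.14. Scaling by trimmed means (TMM) or median of ratios moved the 8042 genes to 0.14 and the 10 to 1.96, so that both shifted together. The background shares depend on this scaling: with TMM 251 of the 8042 genes (3.12%) were at least 2-fold higher and 406 (5.05%) lower, against 80 and 564 in CPM, and with median of ratios 3.1% and 5.07%.

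Rasgrp2, Napsa, Msc and Gng3 share exonic bases with a gene on the other strand, and whether strand was used in counting is not given in the sources used here. Without it, reads of such partners cannot be told apart. Gng3 shares 398 bases with Bscl2, which was at 11.8 CPM in the positive and 10.2 CPM in the negative library, the opposite direction. Napsa shares 502 bases with Gm15396, which was at 1.96 and 0.665 CPM. The partners of Rasgrp2 (Gm14965, 265 bases) and Msc (Gm9947, 539 bases) were at 0.0723 and 0.651 CPM in the positive library and at 0.0192 and 1.06 CPM in the negative library.

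More cells of the negative library carried each transcript. To put cells at one depth, each was thinned to 10000 UMIs, which left 4402 positive-library and 3824 negative-library cells and left out 194 and 8. At that depth Rasgrp2 was found in 20.5% (Clopper-Pearson interval 19.4 to 21.8) of cells in the positive library and 57.7% (56.1 to 59.3) in the negative library, and Fblim1 in 20.6% (19.4 to 21.8) and 54.3% (52.7 to 55.9). Halr1 was found in 12.2% and 37.9%, Smagp in 7.75% and 31.2%, and Bvht in 8.11% and 29.3%. Msc was found in 8.04% and 22.4%, Gng3 in 8.13% and 21.9%, Gm11627 in 6.59% and 20.2%, Inhbb in 3.59% and 14.6%, and Napsa in 1.499% and 10.1%. Without thinning the shares were higher in both libraries, for example 41.9% and 88.8% for Rasgrp2 and 4.18% and 26.6% for Napsa. No cell type here is known to lack these genes, so stray transcript of them could not be measured. GFP in the negative library was found in 0.471% of cells (0.279 to 0.743) at 10000 UMIs. All 20 shares of the 10 genes lay above that share. It sets no floor for them, because stray transcript of a gene depends on that gene's own level in its library.

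The genes were also counted cell by cell. The median cell had 1 of the 10 genes (interquartile range 0 to 2) in the positive library and 3 (2 to 4) in the negative library. None was found in 1887 positive-library cells, or 42.9% (41.4 to 44.3), and in 162 negative-library cells, or 4.24% (3.62 to 4.92). At least 4 were found in 131 cells, or 2.98% (2.49 to 3.52), and in 1376 cells, or 36.0% (34.5 to 37.5). No cell of either library had all 10.

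**Figure D2:**
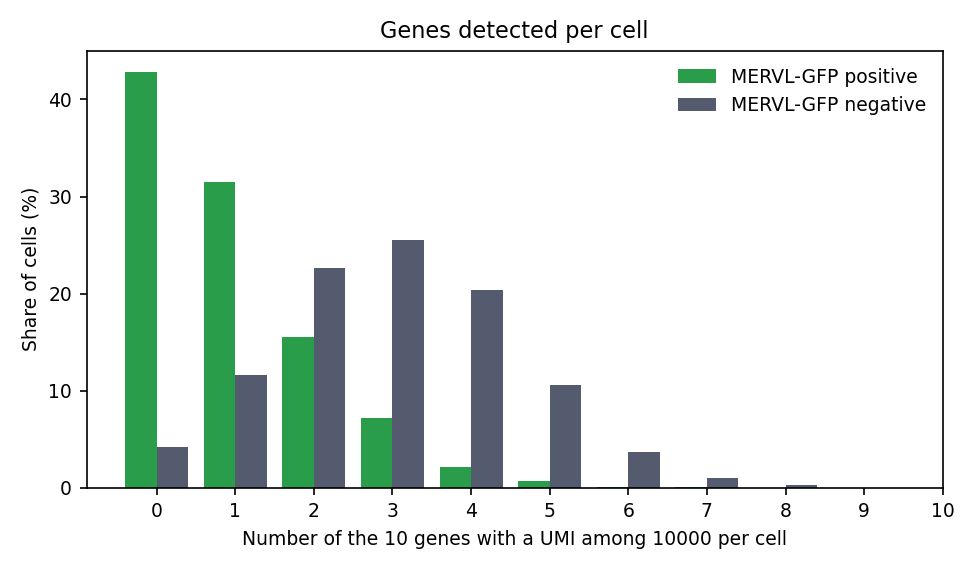
Share of cells (%) by the number of the 10 genes with at least 1 UMI among 10000 per cell, for the MERVL-GFP positive (green) and negative (grey) library. The positive library is highest at 0 genes (42.9% of cells) and the negative library at 3 genes (25.5%).

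Inside the positive library the genes were lower the more reporter transcript a cell had. Its cells were divided by thinned GFP UMIs into classes of 0, 1, 2 to 4, and 5 or more, with 1679, 846, 1102 and 775 cells, and UMIs were summed without thinning. The sum of the 10 genes was 164 CPM (161 to 167), 131 CPM (127 to 135), 93.8 CPM (90.5 to 97.1) and 62.4 CPM (59.0 to 66.0). These cells also entered the contrast by which the genes were picked, so their order is described and not tested.

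Rasgrp2 stood at 34.4, 28.1, 20.9 and 14.0 CPM across the GFP classes. Fblim1 stood at 37.0, 32.7, 22.7 and 15.6 CPM, Msc at 14.3, 11.5, 7.58 and 5.24 CPM, and Bvht at 13.1, 9.49, 6.55 and 4.24 CPM. For these 4 genes no neighbouring classes had overlapping intervals. Gm11627 was at 12.1, 6.86, 5.29 and 2.45 CPM, Inhbb at 6.04, 5.11, 2.51 and 1.60 CPM, and Napsa at 2.39, 1.42, 1.06 and 0.699 CPM. Smagp went from 12.6 to 4.64 CPM, Gng3 from 11.9 to 4.99 CPM and Halr1 from 20.2 to 8.89 CPM. All 10 were lower in each successive class, but 1 or 2 neighbouring classes overlapped for Inhbb, Napsa, Smagp, Gng3, Halr1 and Gm11627. The share of all genes that fell at each step, or whose intervals lay apart or below 1, is not given here. Between the outermost classes the median log2 ratio of the 8215 genes that passed the filter was -0.12. The ratio of the class with 5 or more to the class with 0 ran from 0.203 for Gm11627 to 0.441 for Halr1, with a median of 0.368, and all 10 intervals lay below 1. On the scale of CPM + 1, 9 of the 10 were at least 2-fold lower, where 1.83% of the 8215 genes that passed the filter were. Napsa was the exception, and 8 of the 10 passed the filter.

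Cells with more Zscan4 transcript had less of the 10 genes too. With 0, 1 to 2, 3 to 9, and 10 or more thinned Zscan4 UMIs, in 1933, 1264, 716 and 489 cells, the sum was 159 CPM (156 to 162), 125 CPM (121 to 128), 63.7 CPM (60.3 to 67.3) and 44.4 CPM (40.5 to 48.6). Rasgrp2 stood at 32.6, 27.8, 15.8 and 9.53 CPM and Gm11627 at 10.7, 7.73, 3.34 and 1.23 CPM, with no overlap of neighbours. Msc was close in the first classes and far lower in the later ones, at 13.4, 12.1, 4.22 and 2.17 CPM. Halr1 stood at 21.9, 15.1, 7.12 and 6.13 CPM, and Fblim1 at 36.0, 30.8, 15.7 and 12.4 CPM. For these last 2 genes, and for Inhbb, Smagp, Gng3 and Bvht, the classes with 3 to 9 and with 10 or more overlapped. Napsa had no steady order, with 2.19, 1.13, 1.28 and 0.755 CPM. The ratio of the class with 10 or more to the class with 0 ran from 0.115 for Gm11627 to 0.345 for Napsa, with a median of 0.294. On the scale of CPM + 1, 9 of the 10 were at least 2-fold lower, where 4.69% of the 8457 genes that passed the filter were. Napsa was the exception again, and 8 of the 10 passed the filter. The contrast by which the genes were picked held these cells and differed in Zscan4 as well, at 322 and 0.627 CPM. The order by Zscan4 class is therefore described and not tested, and is no second finding beside that by GFP.

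**Figure D3:**
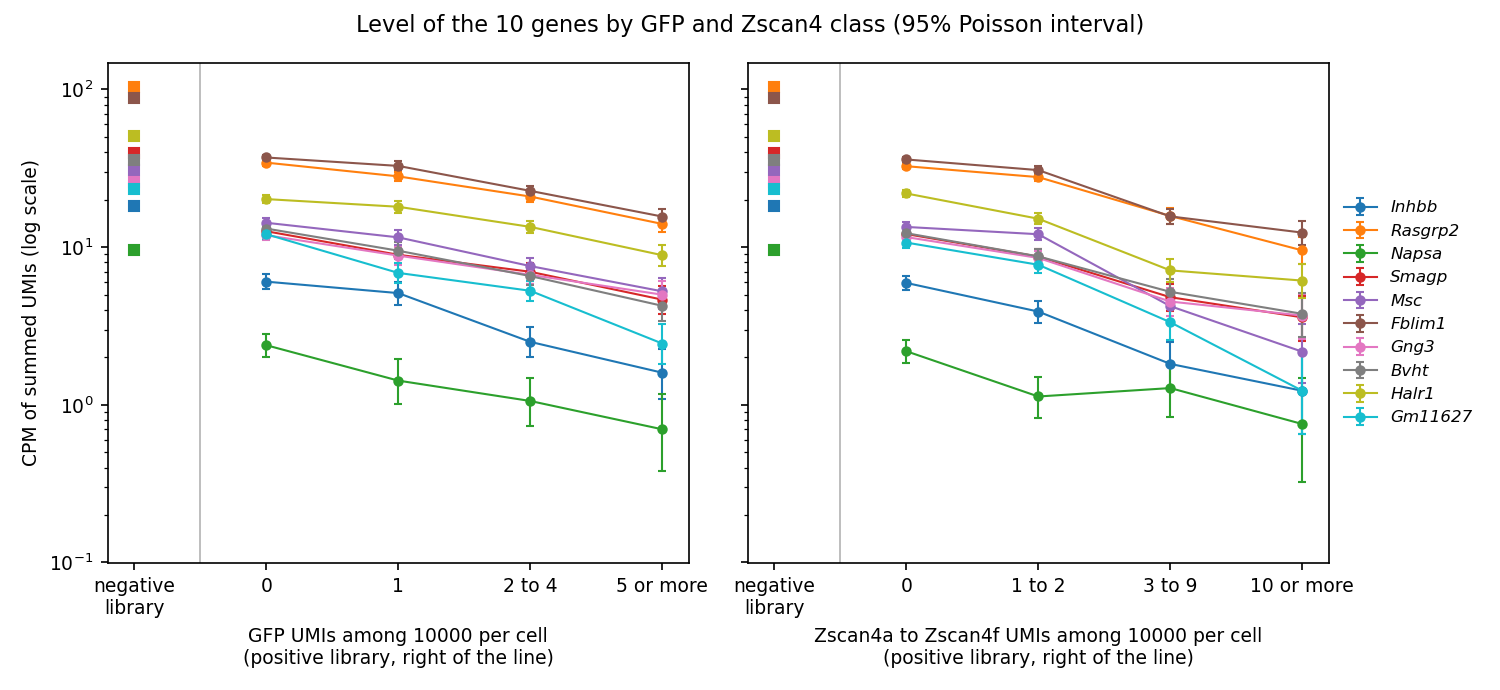
Level of each gene in CPM (log scale) in positive-library cells classed by GFP UMIs (left) and by Zscan4a to Zscan4f UMIs (right) among 10000 per cell, with 95% Poisson intervals for counting error. Squares left of the line are the whole negative library. The lines descend from class to class except for Napsa between 1 to 2 and 3 to 9 Zscan4 UMIs, and each square lies above the line of its gene.

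Depth moved with both classes. Median UMIs per cell were 32565 in cells with 0 GFP UMIs and 24890 in those with 5 or more, and 32916 and 19996 in the outermost Zscan4 classes, where the mitochondrial share was 2.36% and 3.21%. Among positive-library cells of 15000 to 30000 UMIs only, the differences were about as large. Depth was closer but not equal in this band. Median UMIs were 25298 with 0 GFP UMIs and 22979 with 5 or more, and 25574 with 0 Zscan4 UMIs and 20515 with 10 or more. The sum was 135 CPM with 0 GFP UMIs and 49.96 CPM with 5 or more, a ratio of 0.371. With 0 and with 10 or more Zscan4 UMIs it was 133 and 39.4 CPM, a ratio of 0.296. All 10 intervals lay below 1 in each comparison, with no share over all genes beside them. Across depth quartiles of the positive library the sum was 73.4, 107, 133 and 151 CPM, while Zscan4 went from 987 to 124 CPM and GFP from 365 to 137 CPM. In the negative library, where Zscan4 stayed below 2 CPM, it was 406, 430, 419 and 438 CPM. Single genes went both ways there: 5 of the 10 were higher in the deepest quartile than in the shallowest, with intervals above 1. The other 5 were lower, and for 3 of these, Napsa, Smagp and Bvht, the interval lay below 1. Napsa fell most, from 14.7 CPM (13.2 to 16.3) in the shallowest quartile to 8.13 CPM (7.40 to 8.91) in the deepest. The ratio of deepest to shallowest was 0.833 (0.775 to 0.897) for Smagp and 0.805 (0.746 to 0.8695) for Bvht.

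Positive-library cells without a GFP or Zscan4 UMI did not reach the level of the negative library. The 1009 cells with 0 GFP and 0 Zscan4 UMIs had 181 CPM (176 to 185) of the 10 genes, and cells with only Zscan4 (670) or only GFP (924) had 137 and 134 CPM. The 1799 cells with both had 77.3 CPM. The 3796 negative-library cells with 0 of both had 427 CPM (424 to 430). Between the cells with 0 of both, the ratio of the negative to the positive library was 3.53 (2.87 to 4.40) for Napsa, 2.82 (2.67 to 2.99) for Rasgrp2, 2.72 (2.48 to 2.98) for Smagp, 2.64 (2.31 to 3.03) for Inhbb and 2.42 (2.21 to 2.66) for Bvht. It was 2.25 for Fblim1, 2.18 for Halr1, 2.02 for Msc, 1.94 for Gng3 and 1.74 (1.58 to 1.92) for Gm11627. The 10 intervals lay above 1, and 7 of the 10 genes were at least 2-fold higher on the scale of CPM + 1, where 0.28% of 7855 genes were, among them 6 of the 9 that passed the filter. The cells of both libraries here entered the contrast by which the genes were picked, so this excess is described and is not a finding. These positive-library cells had a median of 33670 UMIs and the negative-library ones 39133.5, and a count of 0 at 10000 UMIs does not show that a cell lacks the transcript. The part of either in the remaining difference was not tested.

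In the negative library 18 cells had a GFP UMI and 10 had a Zscan4 UMI at 10000 UMIs. The 10 genes stood at 333 CPM (293 to 378) in the former and 216 CPM (171 to 268) in the latter, below the 427 CPM of the rest.

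In both libraries the genes were low in cells with primitive endoderm transcripts. Cells were called endoderm-high when 3 or more of their 10000 UMIs came from Gata6, Gata4, Sox17, Sox7, Pdgfra, Dab2, Foxa2 and Cubn together. This class is a range of a score and not a cell type, and 29 negative-library and 164 positive-library cells lay just below its limit with 2 UMIs, and 8 and 60 at it with 3. It held 231 of 3824 negative-library and 557 of 4402 positive-library cells. In the negative library the sum of the 10 genes was 447 CPM (444 to 451) in the 3247 cells with 0 endoderm UMIs, 425 CPM (414 to 436) in the 346 with 1 to 2 and 143 CPM (135 to 150) in the endoderm-high cells. In the positive library it was 146, 110 and 42.1 CPM.

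Gm11627 differed most in the negative library, with 24.8 CPM (24.0 to 25.7) in cells with 0 endoderm UMIs and 4.95 CPM (3.66 to 6.55) in endoderm-high cells, a ratio of 0.1995. Rasgrp2 had 110 and 29.4 CPM there, Fblim1 92.8 and 25.3 CPM, Gng3 27.4 and 7.07 CPM and Halr1 53.2 and 17.9 CPM. Smagp differed least, with 41.0 CPM (40.0 to 42.2) against 23.3 CPM (20.4 to 26.6), a ratio of 0.569 (0.496 to 0.649). It also differed least in the positive library, at 9.99 against 8.24 CPM and a ratio of 0.825 (0.686 to 0.985), while Msc, at 12.7 against 2.09 CPM, had the lowest ratio there, 0.164 (0.115 to 0.229). All 10 intervals lay below 1 in each library. At least 2-fold lower on the scale of CPM + 1 were 9 of the 10 genes in the negative library, where 3.17% of 7611 genes were, and 8 of the 10 in the positive library, where 4.76% of 8192 genes were. Smagp in both libraries and Napsa in the positive library were the exceptions, and 9 and 6 of the 10 passed the filter. The cells of both libraries entered the contrast by which the genes were picked. The summed endoderm genes differed in that contrast too, at 199 CPM in the positive and 95.7 CPM in the negative library. The counts by endoderm class are therefore described and are not a finding, and no share over all genes is given for the intervals. The pluripotency gene Zfp42 (Rex1) was lower in endoderm-high cells of the negative library in the same way, at 1307 against 314 CPM, and Nanog at 203 against 37.9 CPM, while Utf1, at 452 against 416 CPM, and Pou5f1, at 390 against 375 CPM, were close. In the endoderm-high cells 38.5% of negative-library and 70.4% of positive-library cells had none of the 10 genes, against 2.00% and 36.6% of cells with 0 endoderm UMIs.

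**Figure D4:**
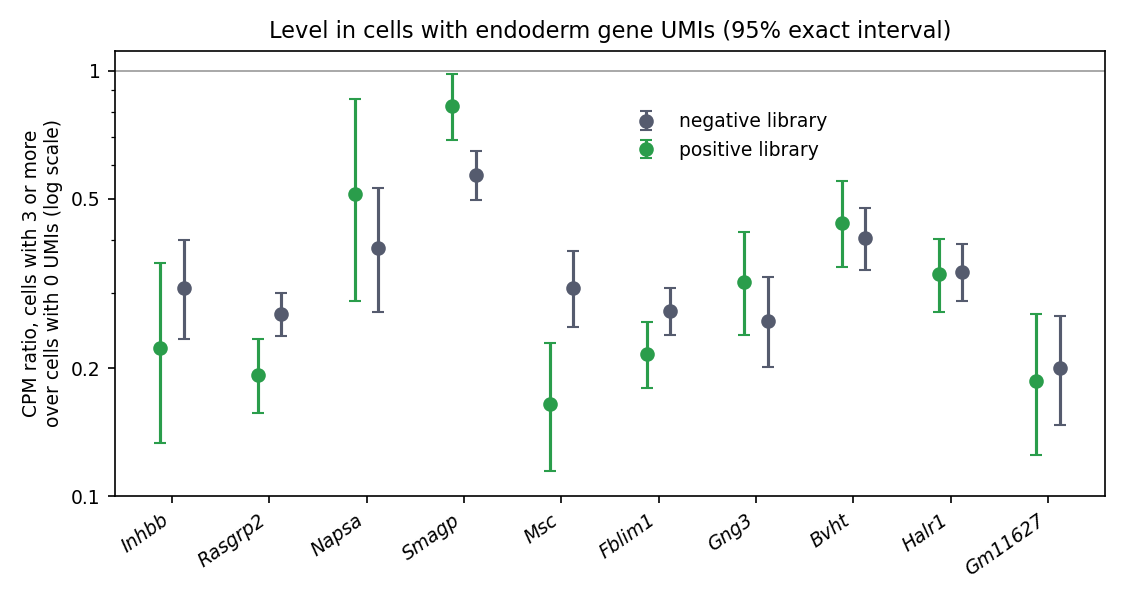
Ratio of the level in cells with 3 or more UMIs of 8 primitive endoderm genes to that in cells with 0 (log scale), for each gene in the negative (grey) and positive (green) library, with 95% exact intervals for counting error. All points lie below 1, and Smagp is nearest to it in both libraries.

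At 10000 UMIs per cell the 10 genes had weak correlations inside each library. Pearson's r of log2(1 + thinned UMIs) was taken over cells of 1 library for the 45 pairs. In sparse counts a weak correlation is no finding, and the pairs share cells and depth. Over 4402 positive-library cells the median r was 0.0504, from -0.0115 for Napsa with Gm11627 to 0.121 for Rasgrp2 with Fblim1, and 44 pairs lay above 0. Over 3824 negative-library cells the median was 0.0198, from -0.0258 for Inhbb with Napsa to 0.0962 for Rasgrp2 with Msc, and 38 pairs lay above 0. At 20000 UMIs per cell, in 3712 and 3693 cells, the medians were 0.0819 and 0.0436 and the highest pairs 0.198 and 0.179. At 10000 UMIs, leaving out the endoderm-high cells, a choice made after seeing the data, moved the negative-library median to 0.00977, with 31 pairs above 0, and the positive-library median to 0.0501. Among the 1009 positive-library cells with 0 GFP and 0 Zscan4 UMIs it was 0.0284, and the highest pair was Inhbb with Halr1, at 0.151. Rasgrp2 had the highest r with the sum of the other 9, 0.205 in the positive and 0.139 in the negative library, and Napsa the lowest, 0.0877 and 0.0304.

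**Figure D5:**
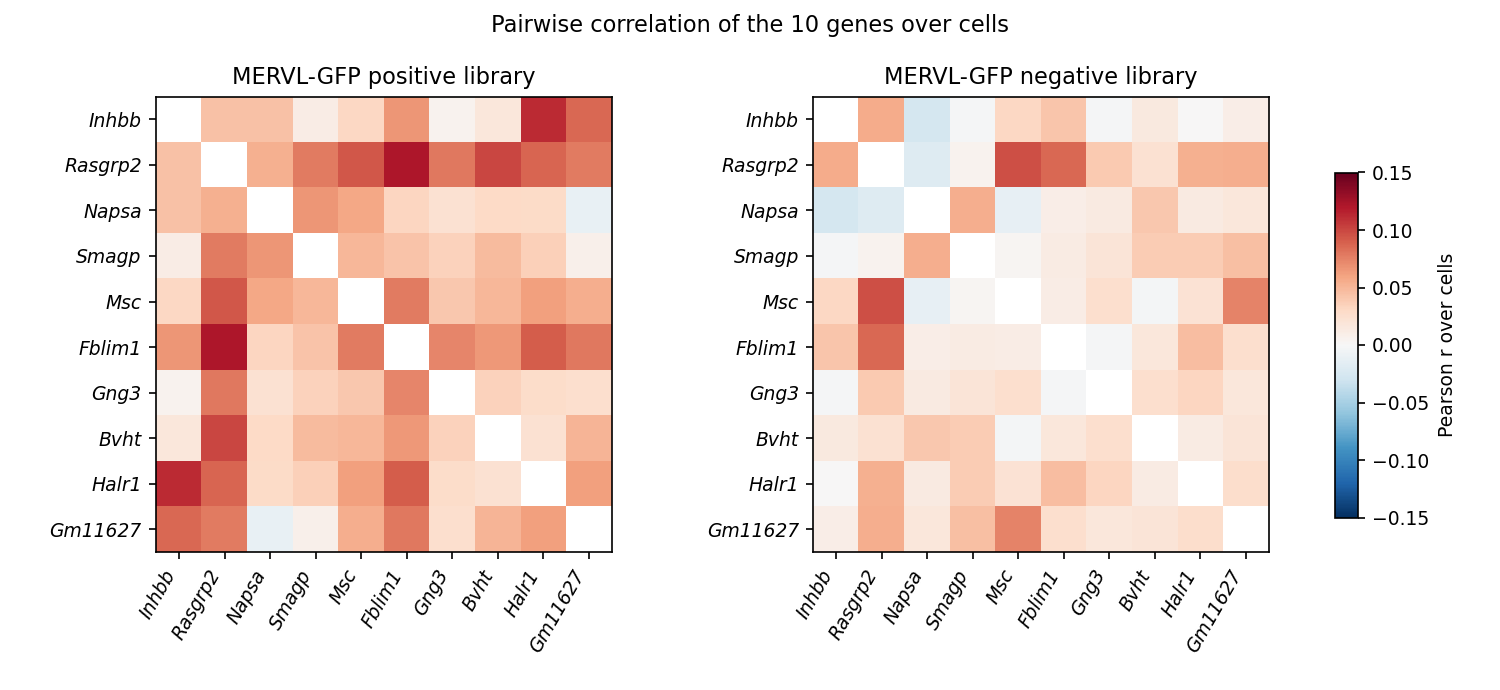
Pearson r of log2(1 + UMIs among 10000 per cell) for each pair of the 10 genes, over 4402 positive-library cells (left) and 3824 negative-library cells (right); colour gives r. The highest pair is Rasgrp2 with Fblim1 (0.121) on the left and Rasgrp2 with Msc (0.0962) on the right, and the lowest are Napsa with Gm11627 (-0.0115) and Inhbb with Napsa (-0.0258).

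The sum of the 10 had r of -0.277 with GFP, -0.307 with the Zscan4 sum and -0.240 with the endoderm genes over positive-library cells. Each of the 10 genes alone was below 0 with all 3 there, from -0.144 to -0.0484 with GFP. In the negative library the sum had r of -0.397 with the endoderm genes, where Spearman's rho was -0.241, and r of -0.0601 with GFP and -0.0665 with the Zscan4 sum, which few cells there held. There 9 of the 10 genes were below 0 with GFP and 9 with the Zscan4 sum, and all 10 with the endoderm genes. For neither library is the share of all genes below 0 given beside these counts of signs. The genes were picked between libraries that differ in GFP, Zscan4 and endoderm genes, so the signs are described and are not a finding. With the S phase genes the sum had r of 0.271 and 0.194, with the G2/M genes -0.0869 and 0.00254, and with UMIs per cell 0.218 and 0.0476, positive library first. Without the endoderm-high cells r with the S phase genes was 0.221 and 0.0851, in the same order.

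The genes most like the sum of the 10 over negative-library cells, among 7068 genes with at least 10 CPM there, were Chchd10 (r of 0.346), a mitochondrial protein gene, Zfp42 (0.329) and Sox2 (0.236), a core pluripotency factor. Gsta4 (0.220), Mymx (0.218), Tmsb4x (0.208), Hsp90aa1 (0.202), Septin1 (0.201), Ldhb (0.196) and Ptma (0.194) followed. The middle 98% of the 7068 genes lay between -0.128 and 0.113. In the positive library Zfp42 (0.416) and Sox2 (0.390) held the first and second place of the same genes. In the negative library r was lower without the endoderm-high cells, at 0.104 for Chchd10, 0.129 for Zfp42 and 0.0114 for Sox2. In the positive library it was 0.252, 0.382 and 0.346 without them. At the other end stood Gata6 (-0.380), Foxq1 (-0.369), Fbp2 (-0.343), Lamb1 (-0.338) and Col4a1 (-0.335), which were picked out after their values were seen.

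Taken singly, Msc and Fblim1 had their highest r in the negative library with Zfp42 (0.137 and 0.183), Rasgrp2 with Ptma (0.195), Inhbb with Hspe1 (0.137) and Halr1 with Mkrn1 (0.133) and Utf1 (0.125). Bvht had its highest with Ftl1-ps1 (0.156), a ferritin pseudogene whose reads cannot be told apart with certainty from those of its parent, and Napsa with Stmn1 (0.116). Smagp (0.0963, with 1700097N02Rik), Gm11627 (0.0954, with Anp32b) and Gng3 (0.0925, with Snrpn) had no gene above 0.1.

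Lists of genes that act beside the 10 were counted in the same way, over their members with at least 50 UMIs. Of all 19341 such genes 0.589% were at least 2-fold higher and 6.43% at least 2-fold lower in the negative library, with a median log2 ratio of -0.16. With TMM these shares were 1.77% and 4.57% and the median 0.02, and calls near 2-fold shift with it; median of ratios made the same list calls as TMM except for Vegfa. Of 22 activin and Nodal pathway genes 0 were 2-fold higher and 0 lower (median 0.03), while Gdf3 was 2-fold higher with TMM (log2 ratio 1.04, against 0.75 in CPM). Nodal, the ligand, had 35.8 CPM in the positive and 19.6 CPM in the negative library, the receptor Acvr2a 11.7 and 6.39 CPM, and the ligand Gdf3 26.8 and 45.9 CPM.

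Of 22 Ras and Rap exchange factors and GTPases 0 were higher and 1 was lower (median -0.25). That was Sos2, an exchange factor for Ras, at 13.3 and 4.65 CPM, and the relative Rasgrp3 was at 2.23 and 0.716 CPM, which passed only in CPM outside ribosomal protein and mitochondrial genes. Of 13 other G protein beta and gamma genes 0 passed in either direction (median 0.05), with Gng12 at 22.4 and 12.3 CPM and Gng5 at 634 and 953 CPM. Of 16 integrin and filamin adhesion genes 0 passed (median -0.25), and Flna, the filamin that migfilin binds, was at 35.8 and 21.5 CPM. Of 11 aspartic and lysosomal proteases 1 was lower (median -0.24), Ctsc, at 24.5 and 7.99 CPM.

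Among 12 bHLH and Id genes, which include binding partners of bHLH factors and their inhibitors, 1 was higher and 3 were lower (median -0.62), or 2 with TMM, where Id2 was at -0.95 in place of -1.24 (median -0.38). Tcf15, a bHLH factor of pluripotent cells leaving the naive state, had 62.9 and 210.7 CPM, while the inhibitors Id3 (165 and 59.3 CPM), Id2 (73.9 and 30.8 CPM) and Id4 (6.91 and 1.76 CPM) were lower in CPM. Of 21 Hoxa cluster and retinoic acid genes 0 were higher and 2 lower (median -0.39), namely Hoxb1 (1.51 and 0.0703 CPM) and Hoxa10 (1.84 and 0.390 CPM), and Hotairm1, a non-coding RNA of the cluster, had 10.7 and 5.14 CPM. With TMM the median was -0.10 and Hoxb1 alone passed, with Hoxa10 at -0.90 in place of -1.03, and 4 genes passed in CPM outside ribosomal protein and mitochondrial genes. All 13 cardiac mesoderm genes were below 10 CPM in both libraries and 0 passed (median -0.49).

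Of 19 pluripotency genes 1 was higher, Utf1 (162 and 448 CPM), and 1 lower, Nanog (410 and 192 CPM), with a median of 0.15. With TMM Nanog was at -0.80 in place of -1.09 and did not pass, and the median was 0.44. Of 12 genes of the primed state, into which naive stem cells mature, Lef1 (1.89 and 10.4 CPM) and Otx2 (7.45 and 19.5 CPM) were higher and Sox3 (18.0 and 1.11 CPM) lower. Their median of -0.13 was 0.10 under TMM and median-of-ratios scaling; no other list median changed its sign under the 4 other scalings. Of 24 hypoxia and glycolysis genes 1 was higher, Pdk1, and 2 were lower, P4ha2 and Slc2a3 (median 0.22). With TMM the median was 0.49, Slc2a3 did not pass (-0.88 in place of -1.17), and Vegfa passed as higher. Of 23 S phase genes 0 passed (median 0.19), and of 24 G2/M genes 1 was lower, Cenpe (median -0.37). With TMM the medians were 0.48 and -0.08, Gmnn passed as a higher S phase gene (1.23 in place of 0.93), as it did with CPM averaged over cells, and Cenpe did not pass (-0.79 in place of -1.08).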

How the data were processed

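The authors deposited 1 sparse matrix of raw counts for each library. The counts are treated as UMIs on account of the 16-base cell barcodes, although no label says that molecules were counted. The submitters' processing notes name FastQC 0.11.2, Trim Galore 0.6.4, STAR 2.7.6a and build mm10, without roles; annotation, strand setting and cell calling are not given in the sources used here. The extraction text in the labels describes kits for bulk RNA, not single-cell capture.

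The 10 genes and all gene lists were chosen with earlier results of these data known. Cells with at least 1000 UMIs, 500 genes and at most 20% mitochondrial UMIs were kept (4596 and 3832). No doublet caller was run, so doublets remain; an alternative dropped cells with over 2 times the median UMIs. UMIs were summed and scaled to CPM, log2 ratios use CPM + 1, and cells were thinned without replacement to 10000 UMIs for shares, classes and correlations. Poisson, Clopper-Pearson and conditional exact intervals are at 95%. There is no test, as a group is 1 library.

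The text names all 10 genes, the 10 genes most like their sum and the 2 most like each (not all of these are printed), reference genes, and at most 4 genes per list with the largest log2 ratio; any other gene was picked with its value in view. Positions are from GENCODE M21, which held 52133 of 55415 feature IDs (94.1%); 901 symbols repeat an earlier one. Classes of GFP and Zscan4 were fixed settings; the depth band of 15000 to 30000 UMIs and the correlations without endoderm-high cells were chosen after seeing the data. On simulated data for the library comparison, with 200 of 55415 genes changed 3-fold, the 2-fold rule recovered 100% with 0 false calls. The changed genes were drawn above a minimum mean level of the 2 libraries, which Inhbb, Napsa, Gng3 and Gm11627 did not reach. The simulated counts held counting error only, so the result does not speak for lower genes or for differences between libraries. TMM factors came from edgeR 4.0.16 in R 4.3.3, and the rest from Python 3.11.15 with pandas 2.3.3, numpy 2.4.6, matplotlib 3.10.9 and scipy 1.17.1.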

Additional observations from a re-analysis of the deposited data

How the results depend on the processing

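No paired analysis was possible because there is only 1 library on each side, and none could be left out. The log2 ratio of the summed genes, negative over positive library, was 1.76. It was 2.05 with TMM or median-of-ratios factors, 1.81 when ribosomal protein and mitochondrial genes were kept out of the total, 1.87 when CPM was averaged over cells and 1.69 without endoderm-high cells. It was 1.16 between cells with 0 GFP and 0 2C-list UMIs. In alternatives chosen after seeing the data it was 1.24 between cells with 0 GFP and 0 Zscan4 UMIs, 1.15 when endoderm UMIs were 0 too, and 1.21 with Pramel7 and Arg2 left out of the 2C list. Each of the 10 genes stayed higher in the negative library under every one of these settings. All 10 were at least 2-fold higher except between cells with 0 UMIs of those markers, where 6 to 8 were, and Gm11627 had the lowest log2 ratio, 0.72 to 0.79. The count of genes at least 2-fold higher, 80, was 260 with TMM and 258 with median-of-ratios factors when the filter used the rescaled values too. The median share of cells with a UMI was 8.08% and 25.8%, 4.32% and 14.7% at 5000 UMIs, and 20.2% and 61.2% without thinning, as depth sets it. The log2 ratio of the GFP class with 5 or more UMIs to that with 0, -1.38, was -1.58 with classes from 5000 UMIs. At 5000 UMIs a limit of 5 asks for a larger share of GFP in a cell, and its part in the shift was not tested. The median pair correlation, 0.0504 in the positive and 0.0198 in the negative library, was 0.0819 and 0.0436 at 20000 UMIs.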
